A study of Mus musculus with 4 samples.

Results

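The genes of DNA replication and mitosis were read as a set of 56 genes in cells sorted by kidney-specific protein (KSP, the cadherin encoded by Cdh16). A gene was taken where a probe set of the array is assigned to it and to no other gene. This held for 55 of the 56 genes, out of 18193 genes on the array, with 125 probe sets in all. Ccnb1, which encodes cyclin B1, was the exception and is named only. Of the 125 probe sets, 107 passed a filter on low signal, and the brightest of them stood for each gene, so that all 55 genes were among the 12849 tested. The set falls into 20 genes of DNA replication, 21 genes of mitosis, 9 genes of G1 cyclins, their kinases and E2f1, and 6 genes of kinase inhibitors and Rb1.

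Cells copy their DNA in S phase and divide it in mitosis, and most genes of both steps are transcribed only when they are needed. In G1, cyclin D with Cdk4 or Cdk6 and then cyclin E with Cdk2 phosphorylate the retinoblastoma protein, which releases E2F factors that switch on replication genes. Genes of mitosis follow later under the MuvB complex with B-Myb and FoxM1, and the inhibitors of the Cdkn families hold the kinases back. Mouse ES cells have a short G1, much cyclin E and Cdk2 activity, and little D-type cyclin, which changes as they differentiate.

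All samples came from CAG-GFP EB3, 1 mouse ES cell line of the 129/Ola strain that carries GFP under the ubiquitous CAG promoter. The cells were differentiated through embryoid bodies with Activin at 10 ng/mL and were sorted on day 18 with an antibody against KSP. The KSP-positive group was KSP-positive and GFP-positive, the KSP-negative group was KSP-negative and GFP-positive, and dead cells were gated out with propidium iodide in both. There were 2 arrays for each group from 2 independent experiments, and they were compared only with each other. Each value below is a log2 signal after scaling of the arrays, and each difference is KSP-positive minus KSP-negative, so a difference of -1 stands for a signal 2-fold lower in KSP-positive cells.

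The labels were checked on markers before the genes were compared. Cdh16 itself was dim on every array, with log2 signals of 5.66 and 5.03 in KSP-positive cells and 5.30 and 4.71 in KSP-negative cells, and the groups overlapped (difference 0.34, adjusted p = 0.816 from limma). Of 10 kidney lineage markers, 6 were tested and 1 passed, Lhx1, which fell. ES cell markers fell in KSP-positive cells for 10 of 10 genes (median difference -3.60). Their summed signal was 1123 and 1263 in KSP-positive cells against 10193 and 20925 in KSP-negative replicates 1 and 2, and Nanog was at the floor of the scale in KSP-positive replicate 1. Macrophage markers rose for all 9 tested of 10 genes, with summed signals of 20676 and 9259 against 1373 and 1329, and C1qa was at the floor in both KSP-negative arrays and Fcgr1 in 1. Mesenchymal markers rose for 6 of 10 genes, with summed signals of 72296 and 53627 against 31709 and 17117, and none was at the floor. The share of each of these cell types in the results below was not tested, and in sorted bulk cells fewer cells of a type and less RNA per cell cannot be told apart. The 3' to 5' signal ratio is a sign of RNA quality. For actin it was 2.92 and 1.80 in KSP-positive cells and 1.79 and 3.55 in KSP-negative cells. For Gapdh it was 3.11 and 1.86 against 2.02 and 2.72. The high ratios were thus in KSP-positive replicate 1 and KSP-negative replicate 2, 1 array of each group. Of the 55 genes, 30 were lowest in the former array (31.0% of all genes tested) and 38 highest in the latter (38.4%). Any part of RNA quality in these orders was not tested.

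None of the 55 genes passed the test. With limma and a limit of 0.05 on the adjusted p, 0 genes fell and 0 rose, against 1.65% and 1.84% of all genes tested, and the lowest adjusted p was 0.0875, for Cdc6. At an unadjusted p under 0.05 from limma, 11 were lower and 1 was higher, where 8.72% and 9.05% of all genes were. The t-test of the methods gave 3 lower and 0 higher at that level, where 570 and 666 of all 12849 genes were. It gave none after adjustment. With 1 array left out, the difference ran from -1.86 to -0.999 for Cdc6 and from -1.82 to -0.83 for Ccne1. It ran from -1.65 to -0.65 for Plk1 and from -1.73 to -0.54 for Ccnd1.

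The direction was shared by most of the set. Of the 55 genes, 45 had a lower mean in KSP-positive cells (81.8%, against 51.6% of all genes tested), and the median difference was -0.51, against -0.03 over all genes. The 2 KSP-positive arrays were both below the 2 KSP-negative arrays for 25 genes and both above for 2, where 24.6% and 24.4% of all genes separated in this way. More than 2-fold lower were 6 genes, Cdc6, Plk1, Ccnd1, Ccne1, Cdk2 and E2f1, and 1 was more than 2-fold higher, Cdkn2c. Over all genes the shares were 7.66% and 7.92%, about even, whereas the large differences of the set were mostly on the lower side. They are few genes, and none of them passed the test.

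**Figure D1:**
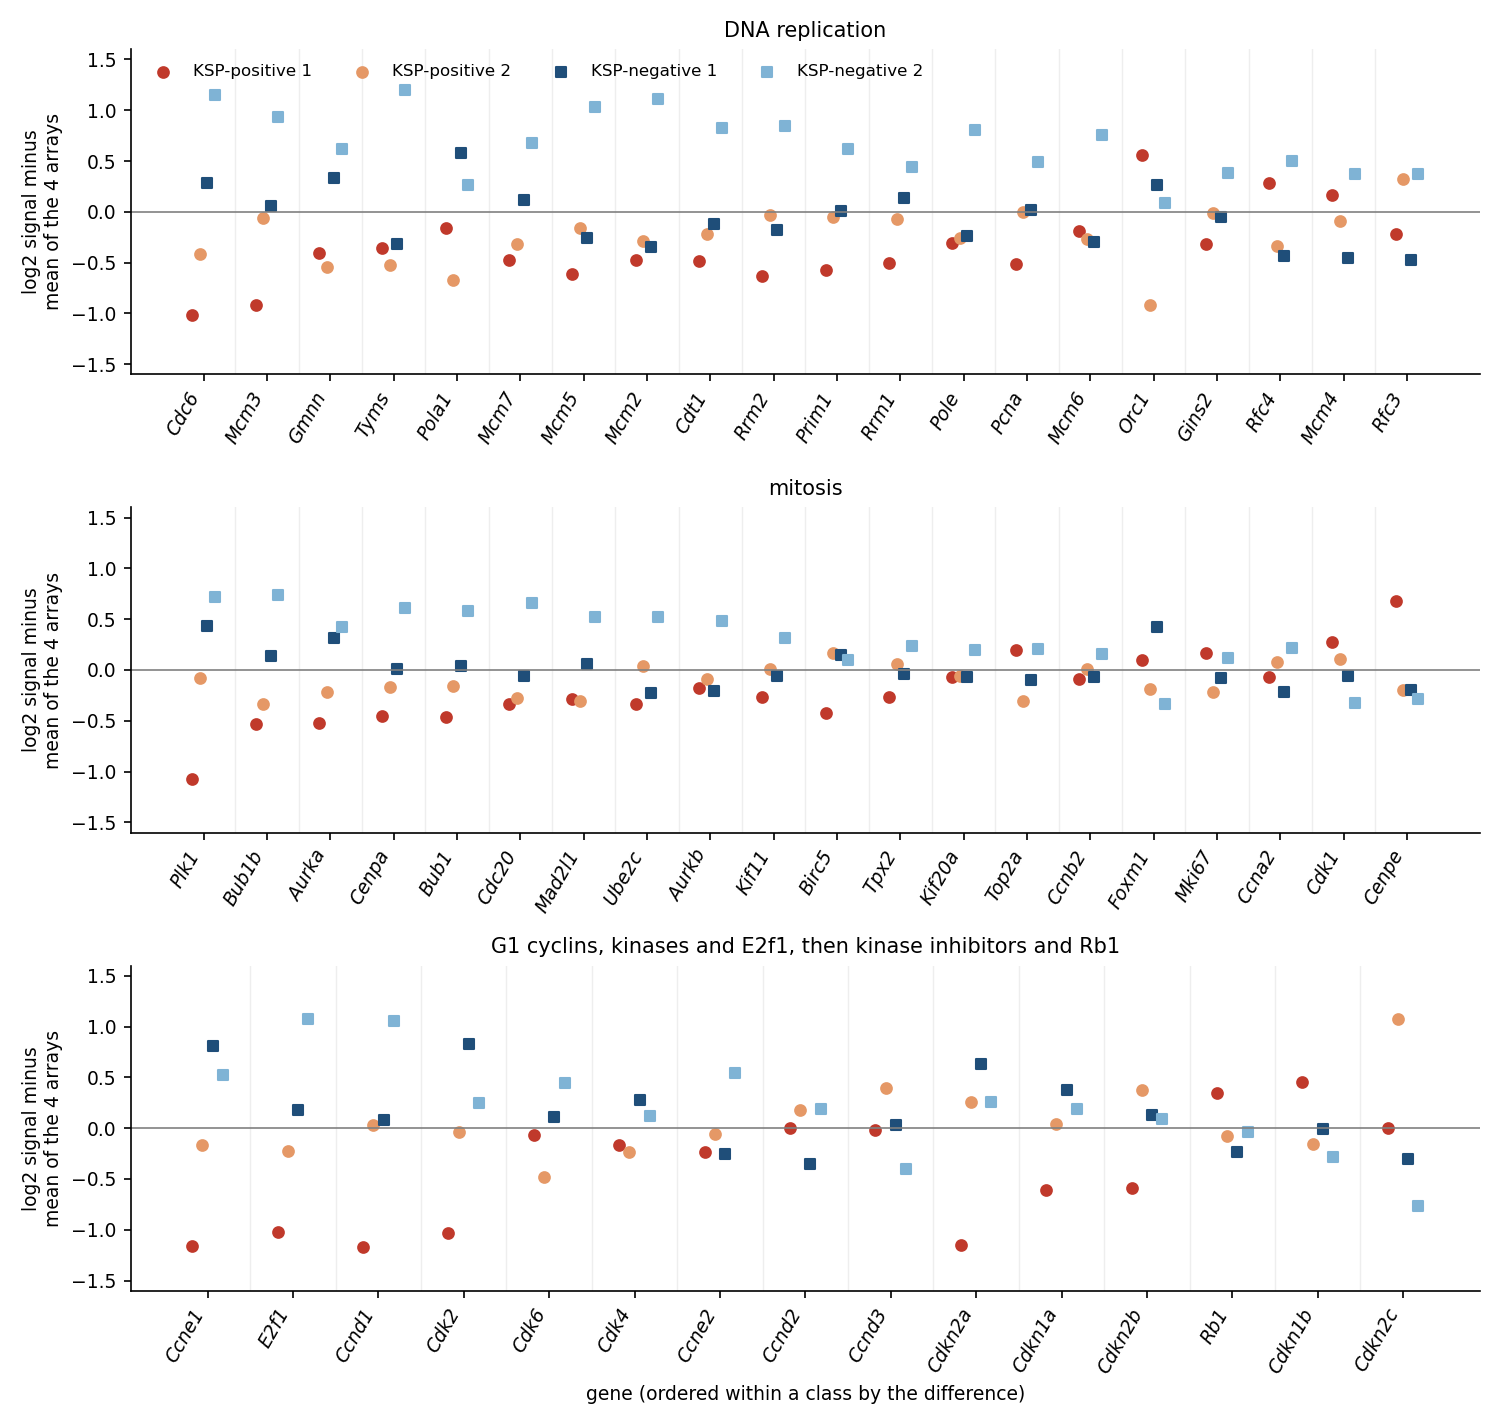
Log2 signal of each of the 55 genes on each array, as the distance from the mean of its 4 arrays (y axis), with genes ordered within a class by their difference (x axis). Red and orange circles are the KSP-positive replicates, dark and light blue squares the KSP-negative replicates. KSP-negative replicate 2 was the highest array for 18 of 20 replication genes and 15 of 20 mitosis genes.

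The replication genes were lower on average in KSP-positive cells for 18 of 20 genes, with a median difference of -0.64. In 11 of the 20 the groups did not overlap, each time with KSP-positive cells lower (24.6% of all genes). They were Mcm3, Mcm7, Pcna, Rrm1, Tyms, Cdc6, Cdt1, Gmnn, Pola1, Pole and Prim1. Of these, Tyms was over the filter on low signal only through KSP-negative replicate 2, where it was high. The size of the median difference depended on the KSP-negative arrays. KSP-negative replicate 2 was the highest array for 18 of the 20 genes (90%, against 38.4% of all genes tested). Without KSP-negative replicate 2 the median difference was -0.19, and without KSP-negative replicate 1 it was -1.03. KSP-negative replicate 2 was also the array with the highest summed signal of ES cell markers, given above.

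Licensing of replication origins begins with Orc1, Cdc6 and Cdt1, which load the ring of Mcm2 to Mcm7, the helicase that opens DNA. Cdc6, the loader of the ring, had log2 signals of 8.48 and 9.09 in KSP-positive cells and 9.78 and 10.65 in KSP-negative cells. Each KSP-positive array was below each KSP-negative array, a mean signal 2.70-fold lower (difference -1.43, 95% CI from -2.32 to -0.54). Cdc6 showed the largest difference of the set and has a single probe set. With 1 array left out the difference of Cdc6 ran from -1.86 to -0.999.

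Gmnn encodes geminin, which binds Cdt1 and prevents relicensing. Its log2 signals were 10.92 and 10.79 in KSP-positive cells and 11.66 and 11.95 in KSP-negative cells (difference -0.95, adjusted p = 0.145 from limma), so the groups were apart and the replicates of each lay close together. Cdt1 itself was at 11.42 and 11.68 against 11.78 and 12.72 (difference -0.70), where KSP-negative replicate 1 lay near the KSP-positive arrays. Orc1, the large subunit of the origin recognition complex, gave different pictures on its probe sets. The brighter read 9.33 and 7.86 against 9.04 and 8.86 (difference -0.35), and the dimmer read 7.09 and 7.26 against 8.46 and 8.68 (difference -1.39). On the dimmer probe set the groups were far apart, with an adjusted p of 0.111 from limma when every probe set was tested alone, and on the brighter they overlapped.

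The helicase subunits did not move as 1 block. Mcm3 had log2 signals of 9.93 and 10.79 in KSP-positive cells and 10.91 and 11.78 in KSP-negative cells (difference -0.98), and all 5 of its probe sets separated the groups, with differences from -1.31 to -0.87. Mcm7 read 11.79 and 11.95 against 12.38 and 12.95 (difference -0.79), again without overlap. On the brightest probe sets, both KSP-negative arrays were above both KSP-positive arrays for these 2 of the 6 subunits.

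On the brightest probe sets of Mcm2, Mcm5 and Mcm6 it was KSP-negative replicate 2 that stood above the other 3 arrays. Mcm2 was at 10.18 and 10.37 against 10.31 and 11.77, Mcm5 at 11.23 and 11.69 against 11.59 and 12.88, and Mcm6 at 11.44 and 11.36 against 11.34 and 12.38. In each of them KSP-negative replicate 1 lay among or below the KSP-positive arrays. Mcm4 read 12.65 and 12.40 against 12.03 and 12.86, with the KSP-positive arrays between the KSP-negative ones, and its difference of 0.08 turned to -0.01 on the values as deposited. A dimmer probe set of Mcm4 gave -0.41. The dimmer probe sets of Mcm5 gave -1.64 and -1.22, both without overlap, where the brightest gave -0.78 with overlap. A dimmer probe set of Mcm6 read 10.47 and 11.04 against 11.18 and 11.59 (difference -0.63), also without overlap.

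At the fork, Pcna is the clamp that holds polymerases on DNA, Pola1 and Prim1 start each strand, Pole extends the leading strand, and Rfc3 and Rfc4 belong to the clamp loader. Pola1 had log2 signals of 8.73 and 8.21 in KSP-positive cells and 9.46 and 9.15 in KSP-negative cells (difference -0.84, adjusted p = 0.260 from limma), and it was the only replication gene without overlap in which KSP-negative replicate 1 was the highest array. Pcna was at 11.72 and 12.22 against 12.25 and 12.72 (difference -0.51), with KSP-positive replicate 2 just under KSP-negative replicate 1. Prim1 was at 10.14 and 10.67 against 10.73 and 11.33 (difference -0.63). These 3 genes had their groups apart, but in each the gap between the groups was smaller than the largest gap between replicates of a group. Pole was apart by a narrow gap, at 8.004 and 8.06 against 8.08 and 9.12. The clamp loader genes Rfc3 and Rfc4 had differences of 0.10 and -0.06 with wide overlap, and a dimmer probe set of Rfc3 gave -0.73. Rfc4 took the opposite sign, at 0.01, after quantile normalization. Gins2, a subunit of the active helicase, had a difference of -0.33 on the brighter probe set and 0.11 on the dimmer.

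Nucleotides for replication come from ribonucleotide reductase, Rrm1 and Rrm2, and from thymidylate synthase, Tyms. Rrm1 read 10.92 and 11.35 in KSP-positive cells and 11.55 and 11.86 in KSP-negative cells (difference -0.57), and its dimmer probe set gave -0.05 with overlap. Rrm2 read 11.13 and 11.74 against 11.58 and 12.61 (difference -0.66), and its dimmer probe sets gave -0.98 and -1.38. Tyms was dim on every array, at 4.85 and 4.68 against 4.89 and 6.41, and KSP-negative replicate 2 alone made its difference of -0.88. Its other 3 arrays were under the filter of 5.14. The other 3 probe sets of Tyms were below the filter, and 1 of them separated the groups with KSP-positive cells higher (difference 0.97).

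The start sites of the replication genes carry a known sequence sign of E2F control, which is shown because it sets this class apart from the mitosis genes on a property that no signal was used to find. RefSeq windows of 300 bases (250 before to 50 after a gene's start, build GRCm38.p6) matched 43 of the 56 genes, with 48 windows. The E2F element was searched as TTTGGCGC, TTTCCCGC, TTTGCCGC or TTTCGCGC on both strands. It was found in 9 of 17 windows of replication genes (52.9%), in 1 of 16 windows of mitosis genes and in 744 of 32851 windows of all genes (2.26%). The 160 bases before the start are printed for Cdc6, Pola1, Mcm5 and Mcm6, with the matches to the E2F element in capitals. Some matches overlap and run together, and those on the other strand appear as their reverse complement. The windows are chr11:98907991-98908150 on the plus strand for Cdc6, chrX:93632156-93632315 on the minus strand for Pola1, chr8:75109349-75109508 on the plus strand for Mcm5 and chr1:128359706-128359865 on the minus strand for Mcm6.
Cdc6: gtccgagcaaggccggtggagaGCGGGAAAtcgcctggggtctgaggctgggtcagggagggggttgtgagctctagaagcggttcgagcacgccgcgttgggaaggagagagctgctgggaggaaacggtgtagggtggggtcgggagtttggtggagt
Pola1: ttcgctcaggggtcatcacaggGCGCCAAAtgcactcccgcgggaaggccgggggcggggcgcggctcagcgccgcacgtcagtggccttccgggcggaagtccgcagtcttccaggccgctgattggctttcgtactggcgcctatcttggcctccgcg
Mcm5: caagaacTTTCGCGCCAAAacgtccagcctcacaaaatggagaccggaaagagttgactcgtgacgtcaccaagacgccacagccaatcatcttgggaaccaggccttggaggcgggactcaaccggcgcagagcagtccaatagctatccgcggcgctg
Mcm6: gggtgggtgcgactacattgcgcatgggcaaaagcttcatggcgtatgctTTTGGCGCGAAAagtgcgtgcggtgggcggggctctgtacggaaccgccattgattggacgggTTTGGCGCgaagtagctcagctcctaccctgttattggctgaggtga
Mcm6 holds 3 matches and Mcm5 holds 2. Cdc6 and Pola1, with 1 match each, had both KSP-positive arrays below both KSP-negative arrays on their brightest probe sets, and Mcm5 and Mcm6 did not. Of the other replication genes with a match, Mcm3 and Mcm7, with more than 1 each, and Cdt1 separated in this way, while Orc1 and Rfc3 did not. Among the genes tested outside the set, 465 with an E2F match in a window had a median difference of -0.12, and 9850 without a match had -0.02. A match is a description of the letters and not of binding.

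The mitosis genes were lower in KSP-positive cells for 17 of the 20 tested, with a median difference of -0.25. The groups did not overlap in 7 genes with KSP-positive cells lower, where 24.6% of all genes separated in this way (Aurka, Plk1, Bub1, Bub1b, Mad2l1, Cdc20 and Cenpa) and in 1 with KSP-positive cells higher (Cdk1). KSP-negative replicate 2 was the highest array for 15 of the 20, and without KSP-negative replicate 2 the median difference was -0.07. The difference between the medians of the replication and mitosis genes was not tested, since genes are not replicates of a condition.

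The kinases of mitosis differed among themselves. Plk1, which drives entry into mitosis and spindle assembly, had log2 signals of 8.57 and 9.57 in KSP-positive cells and 10.08 and 10.37 in KSP-negative cells, a mean 2.23-fold lower (difference -1.15, 95% CI from -2.04 to -0.27, adjusted p = 0.155 from limma). Its KSP-positive replicates lay 1 unit apart, and with 1 array left out the difference of Plk1 ran from -1.65 to -0.65. Aurka, the kinase of the spindle poles, read 8.88 and 9.19 against 9.72 and 9.83 (difference -0.74, adjusted p = 0.289). Both of its groups were tight and apart. Aurkb, the kinase of the chromosomal passenger complex, read 9.02 and 9.11 against 9.001 and 9.68 with overlap (difference -0.27), while its dimmer probe set gave -0.53 without overlap. Its partner Birc5, survivin, had a difference of -0.25 with the KSP-positive arrays at the bottom and at the top.

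Cdk1, the kinase that starts mitosis, ran the other way. Its log2 signals were 11.14 and 10.98 in KSP-positive cells and 10.81 and 10.55 in KSP-negative cells (difference 0.38, 95% CI from -0.34 to 1.10, adjusted p = 0.595 from limma). Its cyclins did not follow either direction: Ccna2 had a difference of 0.01 and Ccnb2 of -0.09, with overlap in both. Ccna2 is a case where the probe set decides, since the brighter read 10.04 and 10.19 against 9.89 and 10.32 and the dimmer read 9.21 and 9.73 against 10.16 and 10.33 (difference -0.77, no overlap).

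The spindle checkpoint holds back the separation of chromosomes until all are attached. Bub1b, the checkpoint protein BubR1, had log2 signals of 10.23 and 10.43 in KSP-positive cells and 10.90 and 11.50 in KSP-negative cells (difference -0.87, adjusted p = 0.219 from limma). Bub1, Mad2l1 and Cdc20, the last being the activator of the anaphase-promoting complex that the checkpoint restrains, had differences of -0.62, -0.58 and -0.60. In all 4 both KSP-positive arrays were below both KSP-negative arrays on the brightest probe set, while a dim probe set of Bub1 gave -0.04 with overlap. The checkpoint genes Bub3 and Ttk, taken from the list of other mitosis genes and named here after their values were seen, had differences of -0.10 and -0.17 with overlap. Ube2c, the ubiquitin-conjugating enzyme of the same complex, had -0.30 with overlap. Cenpa, the histone of the centromere, had -0.62 without overlap, while Cenpe, a motor at the kinetochore, was at 10.00 and 9.13 against 9.13 and 9.04 (difference 0.48), which rested on KSP-positive replicate 1.

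The dividing-cell markers Mki67 and Top2a hardly differed on their brightest probe sets. Pcna, another such marker given above, had a difference of -0.51 without overlap. Mki67, the Ki-67 protein found in all cycling cells, had log2 signals of 12.08 and 11.69 in KSP-positive cells and 11.83 and 12.02 in KSP-negative cells (difference -0.04, 95% CI from -0.75 to 0.67). Top2a, the topoisomerase that untangles chromosomes, was at 11.90 and 11.40 against 11.61 and 11.91 (difference -0.11). A dimmer probe set of Top2a gave -0.47 with overlap. On the brightest probe sets of Mki67 and Top2a the KSP-positive replicate 1 array was among the higher arrays. Their intervals include a difference of more than 1.5-fold in either direction, so these data do not show that the groups were alike. The sign of Mki67 changed under quantile normalization (0.01). The spindle genes Kif11, Kif20a and Tpx2 had differences of -0.25, -0.12 and -0.20, and Foxm1, the transcription factor of many mitosis genes, had -0.09. None of these 4 separated the groups on its brightest probe set, while a dimmer probe set of Kif11 (difference -0.69) and 2 of Tpx2 (-0.20 and -0.36) did.

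Start sites of the mitosis genes carry other signs. The NF-Y box was searched as CCAAT and the CHR element, which the MuvB complex binds, as TTTGAA or TTCGAA, on both strands. NF-Y boxes were in 14 of 16 windows of mitosis genes (87.5%), in 13 of 17 of replication genes (76.5%) and in 37.4% of all windows. CHR elements were in 12 of 16 windows of mitosis genes (75%), in 3 of 17 of replication genes (17.6%) and in 19.2% of all windows. The bases before the start are printed for Cdk1, which was higher in KSP-positive cells in each array pair, and for Cdc20 and Ube2c, which were lower on average, with NF-Y boxes and CHR elements in capitals. The windows are chr10:69352913-69353072 on the minus strand for Cdk1, chr4:118437344-118437503 on the minus strand for Cdc20 and chr2:164769769-164769928 on the plus strand for Ube2c.
Cdk1: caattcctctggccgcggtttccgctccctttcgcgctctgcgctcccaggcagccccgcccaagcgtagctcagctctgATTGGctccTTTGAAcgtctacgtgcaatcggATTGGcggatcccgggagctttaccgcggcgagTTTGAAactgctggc
Cdc20: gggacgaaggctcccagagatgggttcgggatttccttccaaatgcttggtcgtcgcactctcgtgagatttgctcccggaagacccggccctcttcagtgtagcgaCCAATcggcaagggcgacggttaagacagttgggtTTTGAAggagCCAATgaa
Ube2c: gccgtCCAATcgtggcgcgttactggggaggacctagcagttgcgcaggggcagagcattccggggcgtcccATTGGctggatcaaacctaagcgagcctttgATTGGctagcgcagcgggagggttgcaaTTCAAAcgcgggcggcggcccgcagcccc
The same pair of elements was in front of each of these genes, and none of their differences passed the test by limma. Without KSP-negative replicate 2 the difference of Ube2c was 0.07. Cdk1 also holds the E2F match found among the mitosis genes, which is left in lower case here. Among the genes tested outside the set, 663 with a window holding both elements had a median difference of -0.07, and 9652 without had -0.02.

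**Figure D2:**
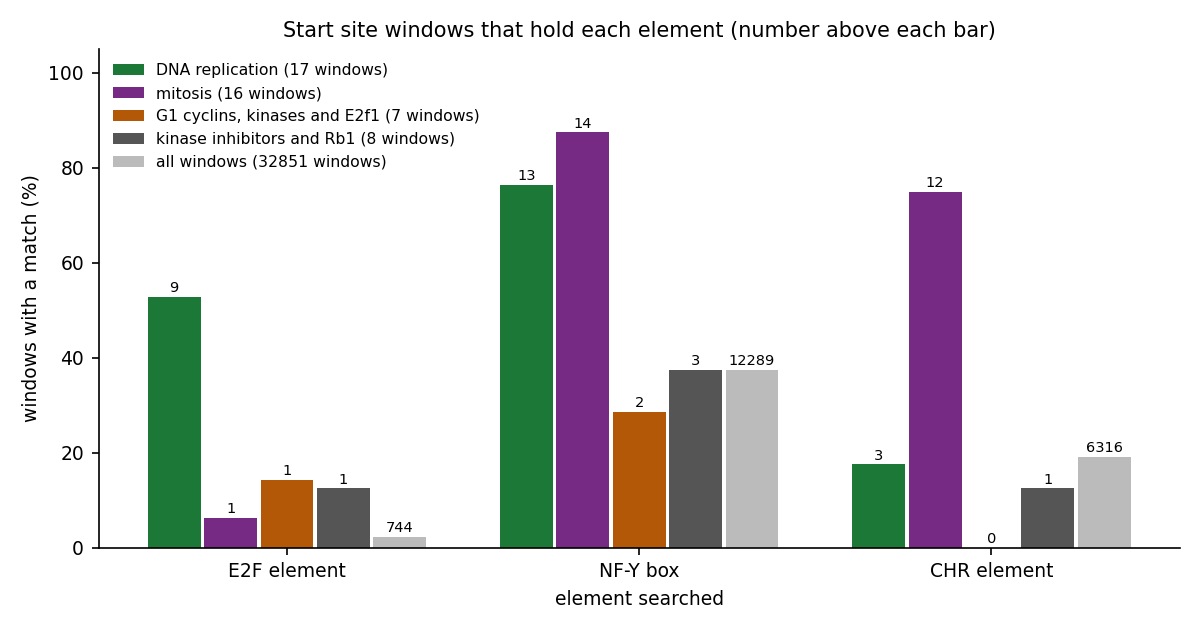
Share of start site windows (y axis, percent) that hold an E2F element, an NF-Y box or a CHR element (x axis), for each class of genes and for all windows, with the number of windows above each bar. E2F elements were in 52.9% of windows of replication genes and CHR elements in 75% of windows of mitosis genes, against 2.26% and 19.2% of all windows.

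Next to Cdc6 and Plk1, the differences over 2-fold to the lower side were found in the G1 class, whose 9 genes had a median difference of -0.55. In 6 of them, Ccnd1, Ccne1, Cdk2, Cdk4, Cdk6 and E2f1, both KSP-positive arrays were below both KSP-negative arrays (24.6% of all genes). More than 2-fold lower were 4 of these 6 (7.66% of all genes).

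Ccne1 encodes cyclin E1, the partner of Cdk2 at the start of S phase. Its log2 signals were 9.25 and 10.25 in KSP-positive cells and 11.22 and 10.93 in KSP-negative cells, a mean 2.51-fold lower (difference -1.33, 95% CI from -2.19 to -0.46, adjusted p = 0.100 from limma). Its other probe set also separated the groups, at 7.24 and 7.997 against 8.63 and 9.54 (difference -1.47). KSP-positive replicate 1 was the lowest array on both probe sets, and with 1 array left out the difference of Ccne1 ran from -1.82 to -0.83. Ccne2, cyclin E2, had a difference of -0.30 with overlap.

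Cdk2 had log2 signals of 7.68 and 8.67 in KSP-positive cells and 9.54 and 8.96 in KSP-negative cells (difference -1.07, adjusted p = 0.212 from limma). As for Ccne1, KSP-negative replicate 1 was the highest array and KSP-positive replicate 1 the lowest. E2f1, the activator of replication genes, had 7.28 and 8.08 against 8.47 and 9.37 (difference -1.25, adjusted p = 0.157), and its other probe set over the filter gave -1.31. The groups were apart on both probe sets of E2f1, with KSP-negative replicate 2 the highest array. The bases before the start of Cdk2 hold an E2F match, the only such match in the 7 windows of this class, and are printed with it in capitals, from chr10:128705052-128705211 on the minus strand.
Cdk2: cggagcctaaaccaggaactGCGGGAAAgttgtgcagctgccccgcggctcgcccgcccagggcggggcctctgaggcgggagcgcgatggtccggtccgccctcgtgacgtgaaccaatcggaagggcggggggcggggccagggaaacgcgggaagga
The 2 genes of the cyclin E kinase and the factor upstream of them were among the 6 genes more than 2-fold lower, and none of the 3 passed the test.

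The D cyclins, which answer to growth signals, did not share a direction. Ccnd1 had log2 signals of 7.63 and 8.83 in KSP-positive cells and 8.88 and 9.86 in KSP-negative cells (difference -1.14, adjusted p = 0.240 from limma). KSP-positive replicate 2 and KSP-negative replicate 1 were almost level, and with 1 array left out the difference of Ccnd1 ran from -1.73 to -0.54. The dimmer probe sets of Ccnd1 overlapped and gave -0.34 and -0.51. Ccnd2 read 11.18 and 11.36 against 10.83 and 11.37 (difference 0.17), and its 7 probe sets gave differences from -0.15 to 0.63. Ccnd3 read 9.98 and 10.40 against 10.03 and 9.60 (difference 0.38), and the mean of its probe sets turned the sign to -0.10. The groups overlapped on the brightest probe sets of Ccnd2 and Ccnd3. They were apart on 1 dimmer probe set of each, with KSP-positive cells higher for Ccnd2 (difference 0.63) and lower for Ccnd3 (difference -0.39).

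Cdk4 and Cdk6 are the kinases of the D cyclins. Cdk4 had log2 signals of 11.21 and 11.14 in KSP-positive cells and 11.65 and 11.50 in KSP-negative cells (difference -0.40, adjusted p = 0.563 from limma), a small difference with tight replicates, and it was 1 of the 3 genes at an unadjusted p under 0.05 by the t-test of the methods, with Gmnn and Aurka. All 3 of its probe sets separated the groups, and the dimmest gave -1.02. Cdk6 was at 9.47 and 9.05 against 9.64 and 9.98 (difference -0.55), and its dimmer probe set gave 0.17 with overlap.

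The inhibitors and Rb1 did not lean to 1 side on their brightest probe sets, with 3 of 6 genes on each and a median difference of 0.02. Cdkn2c encodes p18, an inhibitor of Cdk4 and Cdk6. It had log2 signals of 7.34 and 8.41 in KSP-positive cells and 7.04 and 6.57 in KSP-negative cells, the only gene of the 55 with a mean more than 2-fold higher (2.10-fold, difference 1.07, 95% CI from 0.07 to 2.07, adjusted p = 0.246 from limma). KSP-positive replicate 2 carried most of it. Without KSP-positive replicate 2 the difference was 0.53.

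Cdkn1a encodes p21, the inhibitor best known as a target of p53. Its probe sets contradicted each other. The brighter read 11.05 and 11.71 in KSP-positive cells and 12.04 and 11.85 in KSP-negative cells (difference -0.57), and the dimmer read 10.44 and 10.21 against 10.06 and 9.52 (difference 0.53). The groups did not overlap on either, so no direction can be given for Cdkn1a. Cdkn1b, which encodes p27, read 9.11 and 8.49 against 8.64 and 8.37 (difference 0.29).

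Cdkn2a and Cdkn2b lie side by side in the genome and encode p16, Arf and p15. Cdkn2a was dim, at 5.15 and 6.56 against 6.93 and 6.55 (difference -0.88), with KSP-positive replicate 1 far below the other arrays. Cdkn2b read 8.52 and 9.48 against 9.24 and 9.20 (difference -0.22), with the KSP-positive arrays on either side of the KSP-negative ones. Rb1, the retinoblastoma protein on which the G1 kinases act, read 9.94 and 9.52 against 9.36 and 9.56 (difference 0.27). These 3 genes overlapped between the groups.

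**Figure D3:**
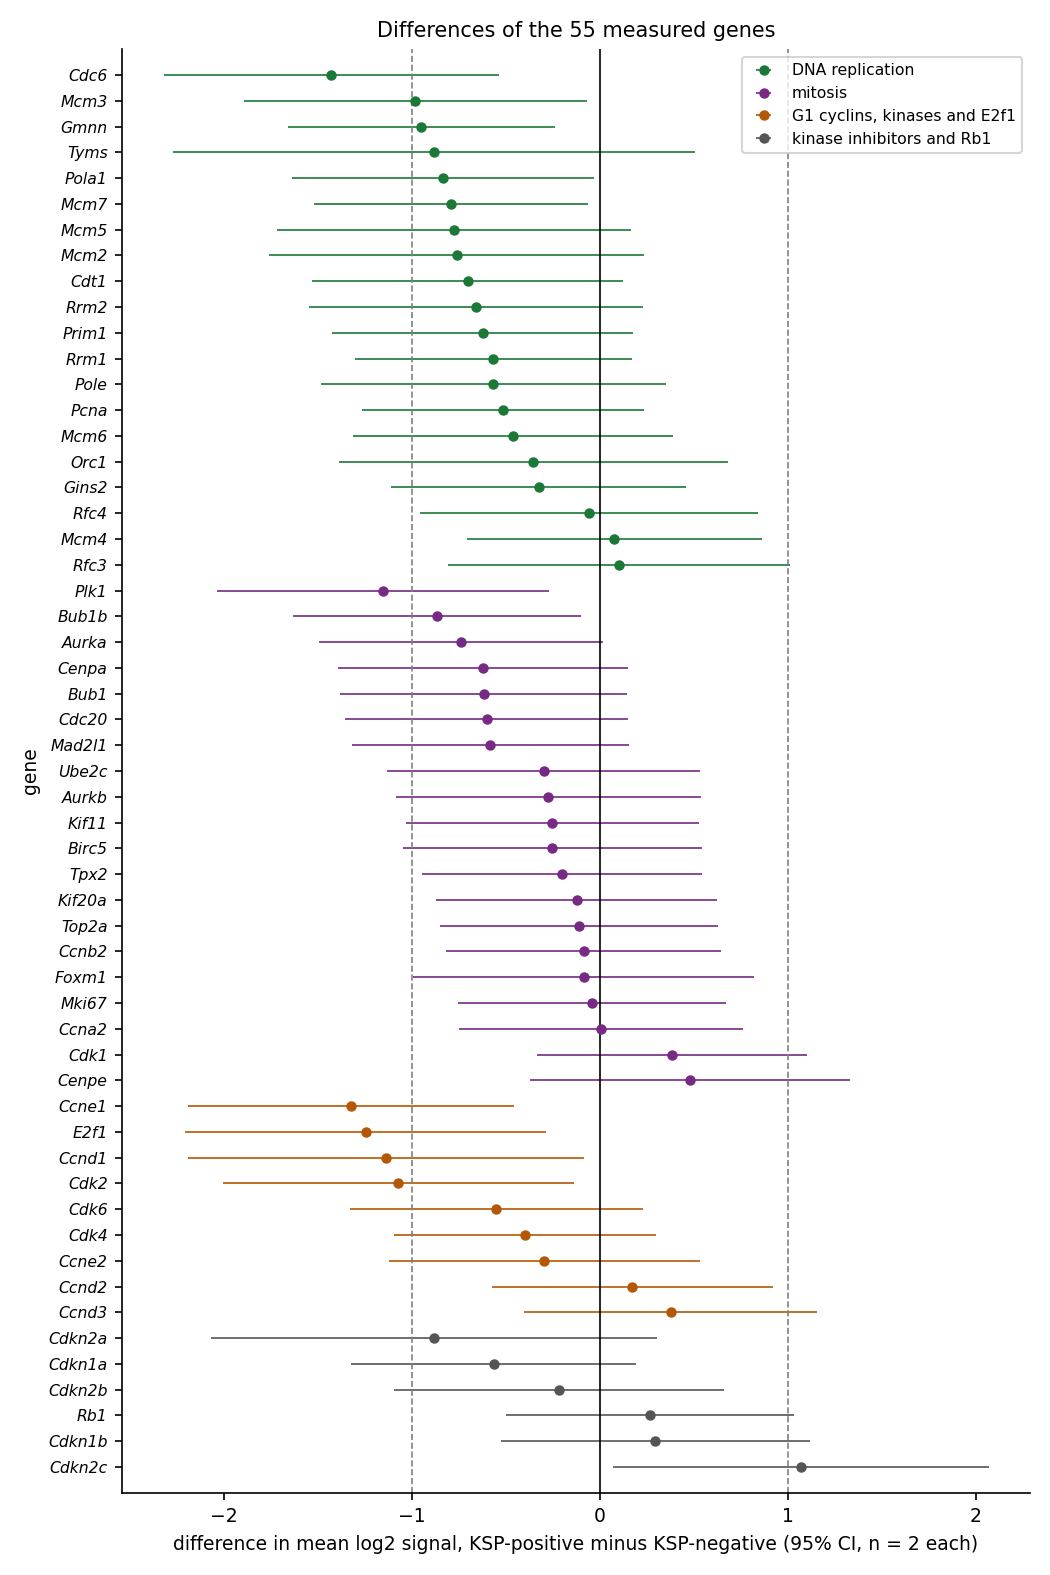
Difference in mean log2 signal between KSP-positive and KSP-negative cells (x axis, 2 arrays each) for each of the 55 genes (y axis), with its 95% confidence interval from limma, coloured by class. The dashed lines stand at 2-fold. Of the 55 points 45 lie left of 0, with Cdc6 farthest left at -1.43 and Cdkn2c farthest right at 1.07.

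The probe sets of each gene gave a check of direction on the same RNA. Of the 107 probe sets over the filter, 89 had a lower mean in KSP-positive cells, and 53 separated the groups with KSP-positive cells lower against 4 with KSP-positive cells higher. Over all 22618 single-gene probe sets above the filter these shares were 52.5%, 24.4% and 22.2%. Among replication genes 37 of 41 probe sets were lower and 26 separated the groups, and among mitosis genes 32 of 35 were lower and 15 separated the groups. Of the 32 genes with several such probe sets, 22 had all of them lower, 0 had all of them higher and 10 had them on both sides of 0. With every probe set tested alone by limma, no probe set passed, and the lowest adjusted p was 0.111. Probe sets of a gene share the arrays and are not replicates.

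**Figure D4:**
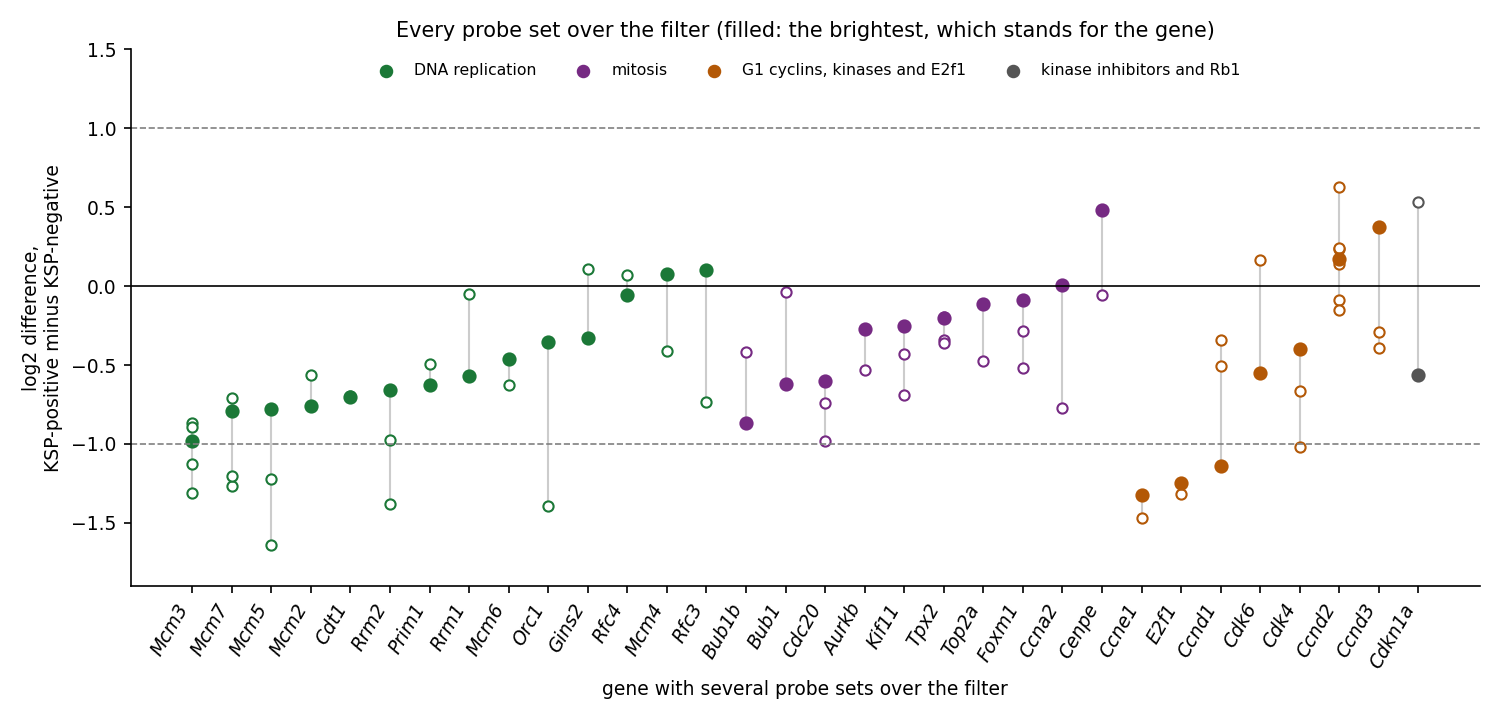
Difference in mean log2 signal (y axis, KSP-positive minus KSP-negative) of every probe set over the filter, for the 32 genes with several (x axis), coloured by class. Filled points are the brightest probe set, which stands for the gene, and the dashed lines stand at 2-fold. The probe sets of Cdkn1a lie at -0.57 and 0.53, while all 5 of Mcm3 lie between -1.31 and -0.87.

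Other genes of the same pathways were taken from lists written from general knowledge. Of 40 other replication genes, 37 were tested, 32 had a lower mean (51.6% of all genes) and 20 separated the groups with KSP-positive cells lower (24.6% of all genes), with a median difference of -0.56. Of these 1 fell (1.65% of all genes), Fen1, the nuclease that trims Okazaki fragments, and 0 rose (1.84% of all genes). Fen1 had log2 signals of 10.84 and 10.80 in KSP-positive cells and 13.05 and 11.97 in KSP-negative cells (difference -1.70), and limma gave an adjusted p of 0.0408. With KSP-negative replicate 1 left out its adjusted p was 0.118, and without KSP-positive replicate 1 it was 0.0512. The call of Fen1 was also lost after quantile normalization (0.0613), without the intensity trend (0.0903), with every probe set alone (0.0752) and with the mean of its probe sets (difference -1.14, 0.0975). The next genes by p were Hells, a chromatin remodeller, Dut, which removes dUTP, and Mcm10, a replication initiation factor, with differences of -1.42, -1.66 and -1.33. They did not pass, with adjusted p of 0.0629, 0.0652 and 0.103.

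Of 49 other mitosis genes, 48 were tested, 42 had a lower mean (51.6% of all genes) and 18 separated the groups with KSP-positive cells lower (24.6% of all genes), with a median difference of -0.28. None passed by limma in either direction, and the t-test of the methods left 0 of all genes after adjustment. At an unadjusted p under 0.05 from limma, 5 were lower and 0 higher, where 8.72% and 9.05% of all genes were. The smallest p among the other mitosis genes belonged to Nek2, a kinase of the centrosome (difference -1.40, adjusted p = 0.0719 from limma). Kifc1, a motor that gathers spindle poles, came next (difference -1.88, adjusted p = 0.107).

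Of 20 other genes of the E2F, pocket protein and MuvB group, 1 fell and 0 rose (1.65% and 1.84% of all genes). Their median difference was -0.12. The gene that fell was Mybl2, which encodes B-Myb, the factor that joins MuvB to switch on mitosis genes. It had log2 signals of 6.26 and 6.10 in KSP-positive cells and 7.61 and 8.57 in KSP-negative cells, a mean 3.75-fold lower (difference -1.91), and limma gave an adjusted p of 0.0408. With KSP-negative replicate 2 left out its adjusted p was 0.298. The call of Mybl2 was also lost after quantile normalization (0.0521), without the intensity trend (0.0566) and with every probe set alone (0.0747). Rbl2, the pocket protein p130 of resting cells, had 7.64 and 7.497 against 6.67 and 5.88 (difference 1.30, adjusted p = 0.139).

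Because Cdkn1a is a target of p53, 18 other p53 targets were read, of which 17 were tested. Of these 2 fell and 1 rose (1.65% and 1.84% of all genes), with a median difference of -0.36. Pmaip1, which encodes the cell death protein Noxa, had log2 signals of 6.71 and 8.03 in KSP-positive cells and 9.53 and 9.94 in KSP-negative cells (difference -2.36, adjusted p = 0.0203 from limma). Gadd45a, a stress protein, had a difference of -1.72 (adjusted p = 0.0472). Fas, a death receptor also carried by white blood cells, rose, with 7.26 and 7.07 against 3.70 and the floor of 3.62. Its adjusted p was 0.00725 from limma, and another floor would change the size of that rise. Both KSP-negative signals of Fas were under the filter of 5.14, so it was tested only through its high KSP-positive signals. With the filter at the 60th percentile (6.71) Fas was not tested. Fas stayed past the threshold whichever array was left out. Pmaip1 did not without KSP-negative replicate 2 (adjusted p = 0.1199) or KSP-positive replicate 1 (0.0618), and Gadd45a did not without KSP-negative replicate 1 (0.107), KSP-negative replicate 2 (0.132) or KSP-positive replicate 1 (0.296). The call of Gadd45a was also lost after quantile normalization (0.0632), with a floor at the 40th percentile (0.053), with the mean of probe sets (0.051), without the intensity trend (0.0826) and with every probe set alone (0.088). Without a filter on low signal, and by the t-test of the methods after adjustment, none of the 5 genes named in these lists as having risen or fallen passed. Among the p53 targets that passed only Fas rose, and given how Fas passed the filter, no common or split direction is read from them.

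Read by array, the replication genes of the set averaged -0.36 and -0.25 from their 4-array mean in KSP-positive replicates 1 and 2, and -0.07 and 0.67 in KSP-negative replicates 1 and 2. The mitosis genes averaged -0.20 and -0.11 against 0.01 and 0.29. The G1 genes averaged -0.54 and -0.07 against 0.19 and 0.42. In all 3 classes the KSP-positive arrays were the lower ones and KSP-negative replicate 2 the highest, whereas the inhibitors and Rb1 averaged -0.26 and 0.25 against 0.10 and -0.09. ES cell markers held the same order, -1.91 and -1.75 against 1.18 and 2.48, and whether their cells account for the order of the cycle genes was not tested. Between the 2 KSP-negative arrays alone, 18 of 20 replication genes were higher in replicate 2, with a median difference of -0.85 for replicate 1 minus replicate 2. This gap between replicates of 1 group was larger than the median difference of -0.64 between the groups.

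**Figure D5:**
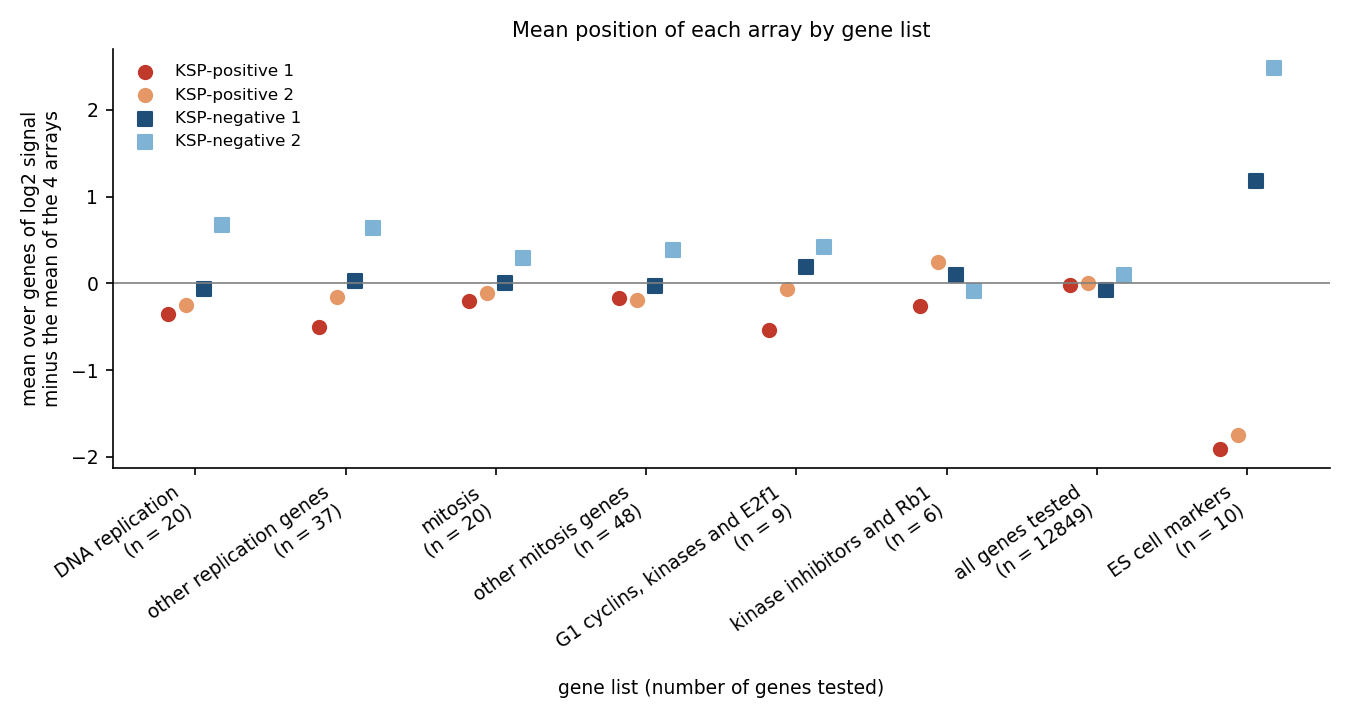
Mean over the genes of each list (x axis) of the log2 signal minus the mean of the 4 arrays (y axis). Circles are KSP-positive and squares KSP-negative arrays. For replication genes KSP-negative replicate 2 lies at 0.67 and the other 3 arrays between -0.36 and -0.07, and ES cell markers run from -1.91 to 2.48.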

How the data were processed

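Total RNA of the 4 sorted samples was purified with the RNeasy Mini kit, labelled with biotin after 2 cycles of cDNA synthesis and hybridized to Affymetrix mouse genome arrays. The authors deposited linear signal intensities, 1 for each probe set and array, made with MAS5 per the submitters' processing notes. Standardization in GeneSpring is named in the methods, with a setting that is not given in the sources used here.

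Each array was scaled to the mean 75th percentile of signal (281, factors from 0.874 to 1.24). A floor was set at the 20th percentile over all arrays (12.3, a log2 signal of 3.62), and log2 was then taken. The arrays hold 64 control probe sets and 45037 others, of which 34945 have 1 gene, 932 have several genes and 9160 have no gene in the annotation used. Symbols were updated through Entrez identifiers, and 204 were kept as listed. Probe sets with a mean under the 40th percentile were left out, and the brightest single-gene probe set stood for its gene. KSP-positive and KSP-negative arrays were set against each other in limma 3.58.1 (R 4.3.3) (empirical Bayes with an intensity trend, Benjamini-Hochberg adjustment over 12849 genes), which was tested on simulated data. The number of arrays limits the precision, and p-values measure only the spread between these 4 samples. With 2 arrays in each group no exact permutation test can pass 0.05, and none was run.

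The genes of the set, the lists and the tests were chosen with earlier results of these data known. Any gene of the set could be named, with values for each array for those more than 2-fold different, the inhibitors and the D cyclins, and from each other list up to 4 genes with the smallest p. Values by array were added for further genes of the set. Start site windows are from RefSeq (GRCm38.p6). The alternatives were other scaling, floors, filters, summaries of probe sets and empirical Bayes settings, the replicate number as a block, the t-test of the methods, and each array left out, where the lone array is assumed to vary like the other group. Figures were drawn with matplotlib 3.10.9.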

Additional observations from a re-analysis of the deposited data

How the results depend on the processing

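No gene of the set passed as higher under any alternative run, and none as lower under other scaling, floors, filters, summaries of probe sets or empirical Bayes settings. Of the 55 genes, 36 kept the sign of their difference under all 16 alternatives, and the 19 that changed sign all had differences within 0.50 of 0. The empirical Bayes settings, the replicate block and the t-test change only the test, so they could not change a sign. With every probe set alone, the probe set with the smallest p gave the sign of its gene. Genes such as Cdkn1a and Cdk6, with probe sets on both sides of 0, thus counted as keeping their sign. No source says which experiment a replicate number stands for, and same-numbered arrays deviated together only weakly (correlation 0.17 over 12849 genes, 2 pairs). With the replicate block 5 genes passed as lower (adjusted p from limma 0.00959 for Cdc6, 0.0288 for E2f1, 0.0327 for Ccne1, 0.0346 for Plk1 and 0.0348 for Ccnd1) and calls over all genes went from 212 to 560 lower and from 236 to 571 higher. The t-test of the methods gave 3 genes as lower without adjustment, where 570 of all 12849 genes were. Without any filter limma called none of 18193 genes, which include many dim ones, and without KSP-negative replicate 2 it called 52 lower and 72 higher. Values as deposited moved the median of all genes to -0.12.

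With 1 array left out, from 4 to 15 genes were more than 2-fold lower (15 without KSP-negative replicate 1). From 0 to 1 were more than 2-fold higher (0 without KSP-positive replicate 2 or KSP-negative replicate 2). The replication median then ran from -1.03 to -0.19 and the mitosis median from -0.39 to -0.065. With every probe set alone 12 genes were more than 2-fold lower on any of their probe sets, so genes with more probe sets had more chances to count. With values as deposited 0 genes were more than 2-fold higher. Reversed differences were -0.015 as deposited, -0.17 as a mean of probe sets and -0.41 with every probe set alone for Mcm4, -0.32 and -0.73 by the last pair of settings for Rfc3, and 0.0066 and 0.072 by the same pair and 0.0055 after quantile normalization for Rfc4. They were 0.0055 after quantile normalization for Mki67, -0.086, -0.38 and -0.77 in the order of Mcm4 for Ccna2, and -0.10 as a mean of probe sets for Ccnd3. With 1 array left out the differences ran from -0.34 to 0.49 for Mcm4, from -0.99 to 0.061 for Mcm6, from -0.32 to 0.52 for Rfc3, from -0.53 to 0.41 for Rfc4, from -1.09 to 0.38 for Orc1, from -0.24 to 0.15 for Mki67, from -0.36 to 0.14 for Top2a, from -0.21 to 0.22 for Ccna2, from -0.20 to 0.028 for Ccnb2, from -0.61 to 0.066 for Aurkb, from -0.55 to 0.042 for Birc5, from -0.26 to 0.0083 for Kif20a, from -0.68 to 0.074 for Ube2c, from -0.46 to 0.29 for Foxm1, from -0.10 to 0.44 for Ccnd2, from -0.70 to 0.10 for Ccne2, from -0.012 to 0.60 for Cdkn1b and from -0.70 to 0.26 for Cdkn2b. The cause of these changes was not tested.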
